A study of Mus musculus with 8 samples.

Results

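The Cxcl14/Pla1a fibroblasts of the mouse heart were examined in 4 single-cell libraries, and their marker genes in 4 tissue sections. A cell was counted as a fibroblast when it held at least 1 UMI (unique molecular identifier, 1 captured RNA molecule) of Pdgfra, at least 20 UMIs of Col1a1, Col1a2, Col3a1 and Dcn together, and no UMI of Ptprc or Pecam1, the markers of white blood cells and of endothelium. Among these, a cell was a member when its UMIs of Cxcl14, Pla1a, Pcsk6 and Loxl2 (the Cxcl14 set) outnumbered those of Gdf10, Rbp4, Sfrp2 and Igfbp3 (the Gdf10 set), with fewer than 2 UMIs of Postn and fewer than 3 of Wif1, Ucma and Chad together. The rule was met by 4345 of 8049 fibroblasts (54.0%), out of 27053 cells kept and 32473 barcodes in all. Since measured counts chose the members, differences in these genes between members and other cells are descriptions of the choice, and other genes of the same cells are described without a test.

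Each condition had a single library and a single section: hearts of sham-operated mice, and hearts at 2, 4 and 6 weeks after transverse aortic constriction (TAC-2w, TAC-4w and TAC-6w), an operation that narrows the aorta and loads the left ventricle with pressure. All mice were wild type C57BL/6J males, 8 weeks old at surgery, and the time of harvest after the sham operation was not given. By their labels, TAC-6w and sham are both batch 3 among the libraries, TAC-2w is batch 1 and TAC-4w batch 2, and among the sections sham and TAC-2w shared batch 1. The sample protocol describes nuclei, whereas the study's methods describe enzymatically dissociated live cells. Neither source used here says how many hearts went into a library. With 1 library per condition no p-value between conditions is given, intervals are 95% and cover counting error only, and a difference between hearts cannot be told apart from one between conditions.

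Cardiac fibroblasts make and remodel the collagen network of the heart and turn into matrix-rich, Postn-expressing cells under pressure load. Resting fibroblasts are not uniform, and sets of secreted factors divide them into states that are also known from other organs. Cxcl14 encodes a chemokine, Pla1a a secreted phospholipase that acts on phosphatidylserine, Pcsk6 a proprotein convertase that cuts growth factor precursors, and Loxl2 an enzyme that cross-links collagen. On the opposite side of the rule stand Gdf10, a ligand of the TGF-beta family, Rbp4, a retinol carrier, Sfrp2, a modulator of Wnt signaling, and Igfbp3, a binding protein of insulin-like growth factors. Stmn4, a stathmin known from neurons, was the only marker of the label that the rule did not use. In the GRCm38.p6 annotation Cxcl14 lies at chr13:56288643-56296811, Pla1a at chr16:38396117-38433191, Pcsk6 at chr7:65862136-66050386, Loxl2 at chr14:69608692-69695834 and Stmn4 at chr14:66344210-66361680.

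Several libraries stood apart before any comparison. Fibroblasts made up 40.0% of the cells kept in the sham library, 37.9% at TAC-2w and 36.0% at TAC-6w, but 4.22% (285 of 6747 cells) at TAC-4w. Of these 285 fibroblasts 23.2% were members. The TAC-4w library held only 66 members with 903831 UMIs in all, against 1890 members with 20484711 UMIs in sham. The TAC-6w library was shallow, with a median of 5917 UMIs per member, against 10524 in sham, 12367.5 at TAC-2w and 12789 at TAC-4w. Pairs of libraries shared between 9 and 30 barcodes, or 0.154% to 0.359% of the smaller library.

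Members were the most common fibroblasts of 3 libraries. They made up 57.4% of the fibroblasts in sham (interval 55.7 to 59.1), 52.9% at TAC-2w (50.9 to 54.9), 23.2% at TAC-4w (18.4 to 28.5) and 54.1% at TAC-6w (51.9 to 56.3). The TAC-4w share lay below the intervals of the other 3 libraries. After each cell was thinned to 2000 UMIs and the rule applied again, the shares were 54.7%, 52.5%, 21.4% and 59.4%, so that TAC-6w stood above sham and not below it. Among cells with 3000 to 10000 UMIs only, the shares were 58.0%, 49.5%, 37.8% and 58.2%. The order of sham and TAC-6w thus changed with the setting. The TAC-4w share was the lowest in each of these settings, but its distance from sham varied. At all UMIs, leaving out ties and the Postn and Wif1 cells, sham stood at 77.1% and TAC-6w at 84.9%. Thinning also took cells out of the fibroblast count, from 3294 to 1837 in sham and from 2006 to 966 at TAC-6w. The part of depth was not tested. As a share of all cells kept, members were 23.0%, 20.1%, 0.978% and 19.5%.

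The other fibroblasts fell into named remainders of the rule. Postn-positive cells (at least 2 Postn UMIs) made up 18.03% of fibroblasts in sham, 21.1% after 2 weeks of TAC, 37.9% after 4 and 30.9% after 6. These cells were deeper than the members, with medians from 8159 UMIs at TAC-6w to 15548 at TAC-2w, and after thinning their shares were 5.39%, 5.37%, 12.3% and 16.1%. Cells with the Gdf10 set ahead made up 17.1%, 21.0%, 33.0% and 9.62%, the lowest share at TAC-6w. Ties (4.21% to 6.65% of fibroblasts) and cells with Wif1, Ucma or Chad (0.399% to 1.75%) made up the rest. Leaving out ties and the Postn and Wif1 cells, the Cxcl14 set was ahead in 77.1% of cells in sham, 71.6% after 2 weeks of TAC, 41.2% after 4 and 84.9% after 6.

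**Figure D1:**
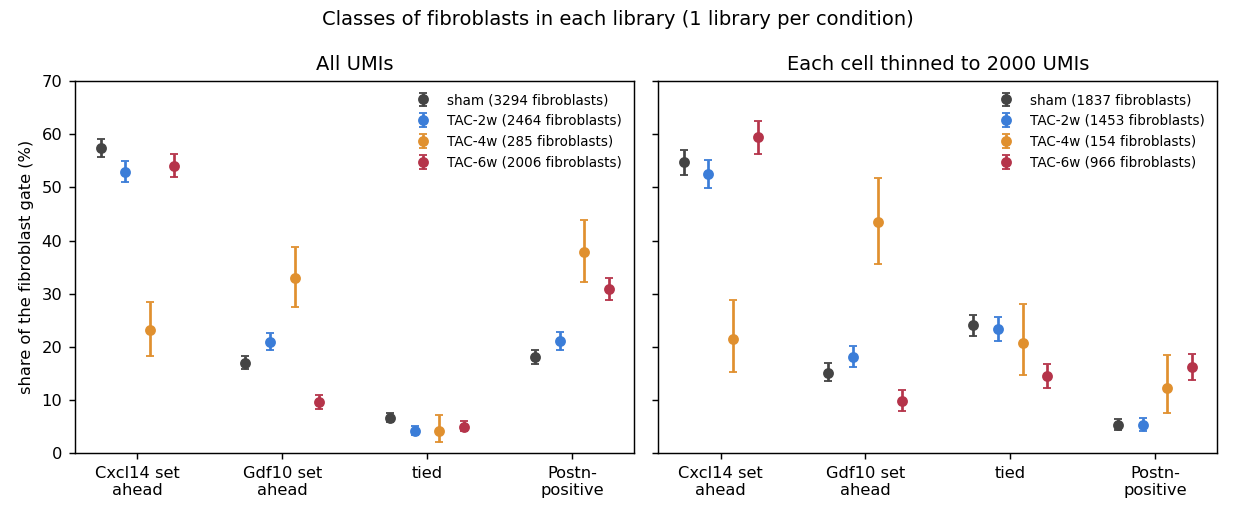
Share of each class among the cells of the fibroblast gate (%), by library, with exact 95% intervals as bars, for all UMIs (left) and after thinning each cell to 2000 UMIs (right). Members are at 23.2% (21.4% thinned) in TAC-4w and between 52.5% and 59.4% in the other 3 libraries, and sham and TAC-6w change places between the panels.

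B cells and macrophages, which the rule does not count as fibroblasts, were also read for the Cxcl14 set. The source of the set's UMIs in these cells was not tested. B cells held at least 1 UMI of the Cxcl14 set in 5.59% of 179 cells in sham, 4.72% of 127 after 2 weeks of TAC, 0.917% of 2290 after 4 and 4.20% of 333 after 6, at median depths of 3336, 3841, 4551.5 and 2055 UMIs. The summed level of the set was 2.59 to 49.3 CPM (the UMIs of a gene scaled to the same total in every class) in B cells and 1470 to 2037 CPM in members. Macrophages had 19.1 to 39.9 CPM, with a UMI of the set in 9.69% to 14.4% of cells at median depths of 4143.5 to 9415 UMIs.

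Pcsk6 was detected in more members than Cxcl14 was. At least 1 Pcsk6 UMI was found in 94.3% of members in sham, 95.7% after 2 weeks of TAC, 92.4% after 4 and 89.9% after 6, with summed levels of 669, 639, 558 and 626 CPM. Cxcl14 was found in 35.5%, 40.4%, 18.2% and 39.2% of members, with 578, 673, 458 and 1012 CPM. Pcsk6 thus marked nearly every member in all libraries, whereas most members held no Cxcl14 UMI. Pcsk6 supplied the most UMIs of the set in 59.5%, 59.3%, 54.5% and 45.7% of members, and Cxcl14 in 22.2%, 24%, 13.6% and 28.7%. Without Cxcl14 in the rule, members were still 54.2%, 50.2%, 22.1% and 51.6% of fibroblasts, and without Pcsk6 they were 47.0%, 42.9%, 18.6% and 44.4%. With both left out, Pla1a and Loxl2 alone gave 40.1%, 35.8%, 16.8% and 37.0%. The genes of the name therefore differed in reach, and more members were without Cxcl14 than with it in each library.

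Pla1a and Loxl2 varied less between libraries than Cxcl14 did. Pla1a stood at 214, 197, 208 and 180 CPM in members, in the same order of libraries. Loxl2 stood at 214, 192, 247 and 220 CPM. Intervals overlapped between sham and TAC-4w for Pla1a (208 to 221 and 179 to 240) and between sham and TAC-6w for Loxl2 (208 to 221 and 209 to 231). Among cells with the Gdf10 set ahead, Pla1a was at 0 UMIs in TAC-4w and at 4.46 to 8.43 CPM in the other libraries, a difference that the rule itself fixes. Postn-positive cells, which the rule sets aside by Postn alone, carried Loxl2 at 290, 280, 110 and 455 CPM, higher than members in 3 of 4 libraries, and Pla1a at 176, 130, 30.1 and 196 CPM.

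**Figure D2:**
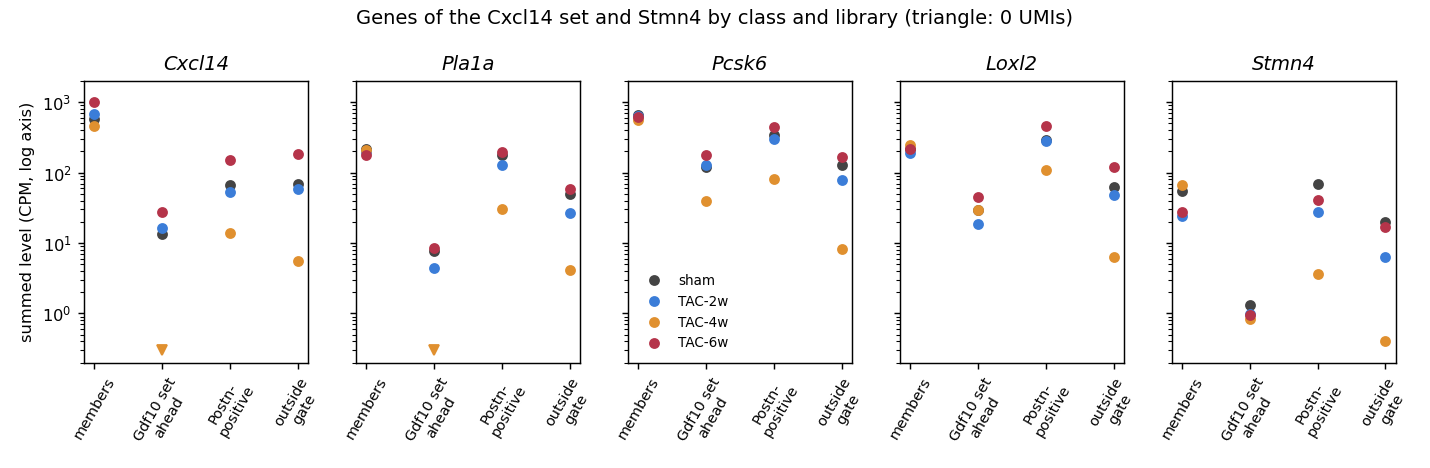
Summed level (CPM, log axis) of Cxcl14, Pla1a, Pcsk6, Loxl2 and Stmn4 in members, cells with the Gdf10 set ahead, Postn-positive fibroblasts and cells outside the gate, 1 point per library, with a triangle for 0 UMIs. Stmn4, which the rule did not use, is near 1 CPM in cells with the Gdf10 set ahead and reaches 69.6 CPM in Postn-positive cells of sham, above the 54.1 CPM of members.

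Stmn4, the marker of the label outside the rule, was then compared between classes. Members had 54.1 CPM in sham (51.0 to 57.4), 23.8 at TAC-2w (21.5 to 26.3), 66.4 at TAC-4w (50.7 to 85.4) and 27.7 at TAC-6w (23.8 to 31.9), while cells with the Gdf10 set ahead had between 0.828 and 1.30 CPM. Postn-positive fibroblasts had 69.6, 27.3, 3.61 and 40.6 CPM, so that Stmn4 was higher in members than on the Gdf10 side in all 4 libraries, but higher than in Postn-positive cells only at TAC-4w. Stmn4 is itself a marker of the label, and members were chosen with earlier results of these data known. These values therefore describe the members and are no independent check of the label. In TAC-4w, 36.7% of the 60 Stmn4 UMIs came from 1 member. Stmn4 UMIs were seen in 17.7%, 10.9%, 16.7% and 7.00% of members, and in B cells there were 0, 0, 0 and 2 UMIs in all. The marker was thus absent from the counts of most members.

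Stmn4 was highest in the members without Cxcl14. In sham, members without a Cxcl14 UMI (1220 cells) had 70.2 CPM of Stmn4, those with 1 to 9 UMIs (340 cells) 34.9 CPM, and those with 10 or more (330 cells) 13.9 CPM, at median depths of 10639.5, 10070 and 10548.5 UMIs. The same order held at TAC-2w (31.7, 16.9 and 8.61 CPM) and TAC-6w (36.9, 15.5 and 11.3 CPM). At TAC-4w the groups held 54, 5 and 7 cells and had 80.2, 0 and 9.29 CPM. Members with 10 or more Cxcl14 UMIs were 17.5%, 21.8%, 10.6% and 19.9% of the members and held 89.9%, 92.4%, 95.4% and 88.2% of the members' Cxcl14. Most of the members' Cxcl14 therefore came from a small share of the cells in each library.

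Other genes differed between members rich in Cxcl14 and members without it. Cxcl14 is a gene of the rule, so a member without it had to pass through the other 3 genes, and the values below are a description of groups that the rule partly sets. Of 5589 genes outside the rule with a mean of at least 20 CPM over both groups, 13 (0.233%) were at least 2-fold higher in members with 10 or more Cxcl14 UMIs than in members with none in each of sham, TAC-2w and TAC-6w, and 11 (0.197%) were at least 2-fold lower. This split was drawn after its values were seen and TAC-4w was left out for its 7 cells. On the Cxcl14-rich side were the secreted and receptor genes Nmb (neuromedin B), Gfra1 (a co-receptor for GDNF), Cntfr (the receptor for ciliary neurotrophic factor), Bmper (a BMP modulator) and Alkal2 (a ligand of the kinase ALK), the complement genes C4b and Cfb, and Hsd11b1, which regenerates active glucocorticoid. Hsd11b1 stood at 291 CPM against 124 in sham, 470 against 156 at TAC-2w and 329 against 130 at TAC-6w. C4b stood at 210 against 67.4, 194 against 76.2 and 184 against 72.6 CPM. C4b, Cfb and Cntfr were higher still on the Gdf10 side in these libraries, where C4b stood at 413, 377 and 343 CPM and Cfb at 84.5, 42.1 and 72.2 CPM.

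The Cxcl14-free side included Igfbp5, Stmn4, Cpe (carboxypeptidase E), Basp1, Limch1, the Wnt modulator Dkk3, the scavenging chemokine receptor Ackr2, and 3 of the 11 adventitial and progenitor-like genes tested, Sema3c, Efhd1 and Fn1. Igfbp5 stood at 14.7 CPM in Cxcl14-rich members against 215 in Cxcl14-free members of sham, at 18.9 against 77.5 at TAC-2w and at 12.8 against 64.7 at TAC-6w. Sema3c, a secreted semaphorin, stood at 40.7 against 178, 42.2 against 119 and 14.3 against 80.5 CPM. The median log2 difference of the 11 adventitial genes was -1.07, beside -0.06 for all genes tested. None of the 16 fibrillar collagen and crosslinking genes or of the 15 basement membrane genes passed 2-fold in either direction. Red blood cell genes, with a median of 1.11 over 4 genes, were higher on the Cxcl14-rich side, none past 2-fold in all 3 libraries, and their part in the split was not tested.

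**Figure D3:**
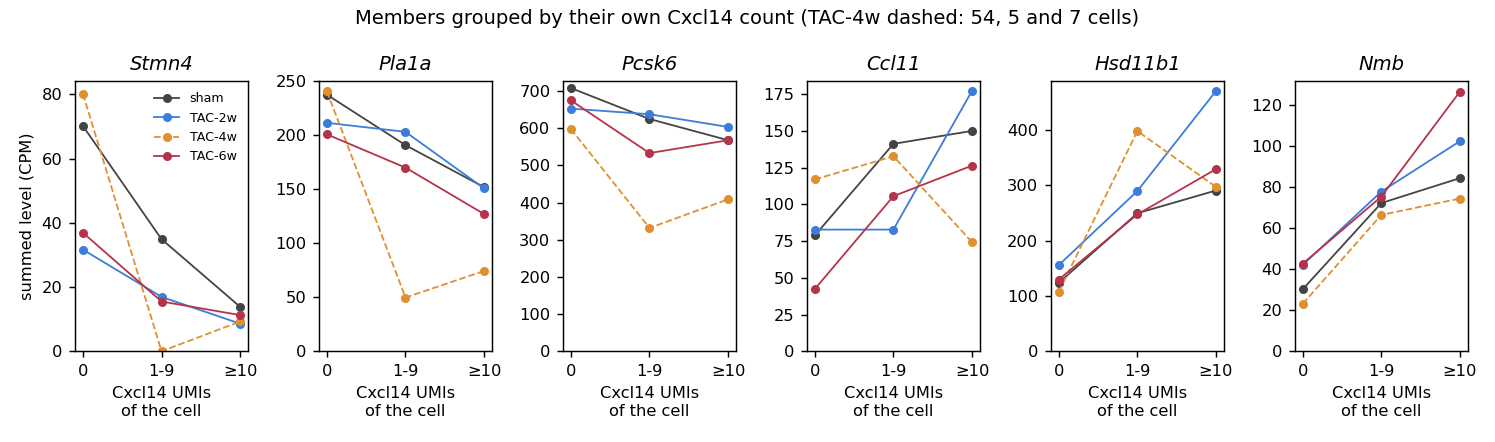
Summed level (CPM) of Stmn4, Pla1a, Pcsk6, Ccl11, Hsd11b1 and Nmb in members grouped by their own Cxcl14 count (0, 1 to 9, 10 or more), 1 line per library, TAC-4w dashed. Stmn4 is highest in members without Cxcl14 in all 4 libraries (70.2 CPM in sham), and Hsd11b1 and Nmb are lowest there.

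Over all libraries, 335 members were ahead by a single UMI of the set, 437 fibroblasts were tied and 225 had the Gdf10 set ahead by 1 UMI, with no gap at the threshold. Stmn4 stood at 6.75, 4.84 and 4.51 CPM in these 3 groups, and Hsd11b1 at 105, 65.3 and 74.2 CPM. Stmn4 was low in all 3 groups, while Hsd11b1 was higher just inside the rule than in the others. At a margin of 25 or more UMIs (992 cells) Stmn4 was at 70.7 CPM, Hsd11b1 at 260 CPM, Pgf (placental growth factor) at 317 CPM and Scara5 (a ferritin receptor) at 380 CPM, while in the 468 cells furthest on the Gdf10 side they stood at 0.196, 62.7, 15.9 and 72.3 CPM. Median depth was 12207 and 10832.5 UMIs in these outer groups, against 8197 to 8767 in the 3 groups near the threshold. The libraries were pooled, and the part of depth or library was not tested.

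Members were compared with all other fibroblasts of the same library over 5822 genes outside the rule with a mean of at least 20 CPM. In all 4 libraries 35 genes (0.601%) were at least 1.5-fold higher in members and 64 (1.10%) at least 1.5-fold lower, counts that the choice of the members partly sets. Against the Gdf10 side and Postn-positive cells taken separately, 16 of the 35 were higher than in both, namely Ccl11, Hsd11b1, Ces1d, Nmb, Ifi204, Ifi205, Adap2, Scara5, Ret, Gsta3, Lpl, Il6ra, Clec3b, Man1a, Lamb1 and Pgf, and 22 of the 64 were lower than in both. The TAC-6w library limited the counts, which were 87 and 121 without it. Without TAC-4w the counts were 44 and 72, and these held all 35 higher genes but only 52 of the 64 lower genes. The rest of the 64 reached the mean of 20 CPM only through TAC-4w. After thinning to 2000 UMIs the counts were 41 and 50, and these held only 21 of the 35 and 32 of the 64 genes.

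The genes that were higher in members are given by what they encode, starting with secreted factors. Ccl11, the chemokine eotaxin that draws eosinophils, stood at 102, 103, 113 and 71.4 CPM in members, in the order sham and then 2, 4 and 6 weeks of TAC, and at 30.6, 21.3, 7.79 and 12.1 CPM in other fibroblasts, a log2 ratio of 1.74 to 3.84. Ccl11 was patchy, with UMIs in 11.2% to 18.6% of members, and at TAC-4w 28.4% of its UMIs came from 1 cell. Nmb had a log2 ratio of 1.47 to 2.43 and stood at 32.1 to 65.7 CPM in members. Pgf, a ligand of the VEGF receptor Flt1, stood at 262, 217, 224 and 217 CPM in members against 105, 72.7, 46.4 and 109 in other fibroblasts. Its distance from the Gdf10 side (2.32 to 2.74 in log2) was larger than from Postn-positive cells (0.74 to 2.34). Efemp1, which encodes the matrix glycoprotein fibulin-3, was higher by 1.04 to 1.38 in log2.

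Receptors and uptake genes were the next group. Scara5 stood at 290, 283, 273 and 167 CPM in members and at 120, 104, 78.8 and 60.3 CPM in other fibroblasts, and was found in 49.0% to 81.2% of members. Ret, the signaling receptor for GDNF-family ligands, stood at 69.6, 48.4, 59.8 and 48.5 CPM in members and at 0 to 2.81 CPM on the Gdf10 side, and at 32.7, 17.8, 0.601 and 27.3 CPM in Postn-positive cells. Ret was thus highest in members in all 4 libraries, unlike Stmn4. Il6ra, the interleukin-6 receptor chain, was higher by 1.05 to 1.74, and Adap2, a regulator of small GTPases, by 1.38 to 3.79. Cells outside the gate held more Adap2 than other fibroblasts did (35.4 to 70.5 CPM in sham, TAC-2w and TAC-6w). They also held more than members in sham (52.3 against 41.9 CPM) and at TAC-2w (70.5 against 62.5 CPM). Il6ra stood at 70.7, 81.6, 49.1 and 56.0 CPM outside the gate, and at 67.7, 62.9, 49.8 and 40.1 CPM in members.

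Several of the genes encode metabolic enzymes. Hsd11b1 stood at 175, 250, 149 and 192 CPM in members, was found in 45.5% to 63.4% of them, and stood at 48.3, 54.9, 32.8 and 60.2 CPM in other fibroblasts. Lpl, the lipoprotein lipase that frees fatty acids from circulating triglycerides, stood at 927, 907, 727 and 726 CPM against 436, 395, 275 and 321, with UMIs in 85.7% to 95.5% of members. Lpl was thus detected in most members of each library. Ces1d, a carboxylesterase, was higher by 1.55 to 2.32 in log2, Gsta3, a glutathione transferase, by 1.13 to 3.21, and Ggt5, a gamma-glutamyl transferase, by 0.94 to 2.31. Ggt5 differed from Postn-positive cells (2.27 to 4.83) more than from the Gdf10 side (0.02 to 1.19). The interferon-inducible Ifi205 and Ifi207 were higher by 1.38 to 2.54 and by 1.07 to 1.82, and none of the 15 genes tested of a separate list of interferon-inducible genes passed 1.5-fold in all 4 libraries.

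The genes that were lower in members included several of the extracellular matrix, and for some the difference lay in the Postn-positive cells that the rule set aside. Thbs4 stood at 0.683, 0.728, 0 and 4.21 CPM in members and at 14.3, 29.5, 9.73 and 157 CPM in other fibroblasts, which at TAC-6w was carried by Postn-positive cells with 206 CPM, while the Gdf10 side had 1.49, 1.32, 0 and 0 CPM. Comp stood at 16.9, 15.1, 19.9 and 50.9 CPM against 134, 182, 2038 and 277 CPM. Both encode thrombospondins, and Comp was high in the TAC-4w fibroblasts outside the members on both the Gdf10 side (1204 CPM) and the Postn side (2745 CPM). At TAC-4w 88.9% of the members' Comp came from 1 cell. Fmod, which encodes the collagen-binding fibromodulin, had a log2 ratio of -6.97 to -2.92 (to the Gdf10 side -0.40 at TAC-6w), and 73.3% of its 15 UMIs in TAC-2w members came from 1 cell. Cilp stood at 64.7, 73.6, 34.3 and 159 CPM in members and at 246, 345, 222 and 810 CPM in other fibroblasts, but the log2 ratio to the Gdf10 side was -0.18, -0.04 and 0.39 in sham, TAC-2w and TAC-6w, and -2.22 at TAC-4w.

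The remaining low genes came from several families. The log2 ratio was -4.21 to -3.30 for Clu (clusterin, an extracellular chaperone), -6.34 to -2.95 for Ecrg4 (a secreted peptide precursor), -3.23 to -2.63 for Ltbp2 (a microfibril-associated protein), -5.05 to -1.75 for Epyc (a proteoglycan) and -3.71 to -2.67 for Cyp2e1 (a cytochrome P450 enzyme). Clu and Ecrg4 were lower than in both other classes, whereas Ltbp2 at TAC-6w was higher in members than on the Gdf10 side (0.74 in log2) and Epyc at TAC-6w higher than in Postn-positive cells (0.84, at 3.46 against 1.87 CPM). Rgs5, a pericyte marker, stood at 1.05 to 5.53 CPM in members and at 5.41 to 142 CPM in other fibroblasts, the highest value at TAC-4w. Outside TAC-4w its level in other fibroblasts was at most 18.7 CPM. With a mean of 23.2 CPM, Rgs5 thus entered the comparison only through TAC-4w.

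**Figure D4:**
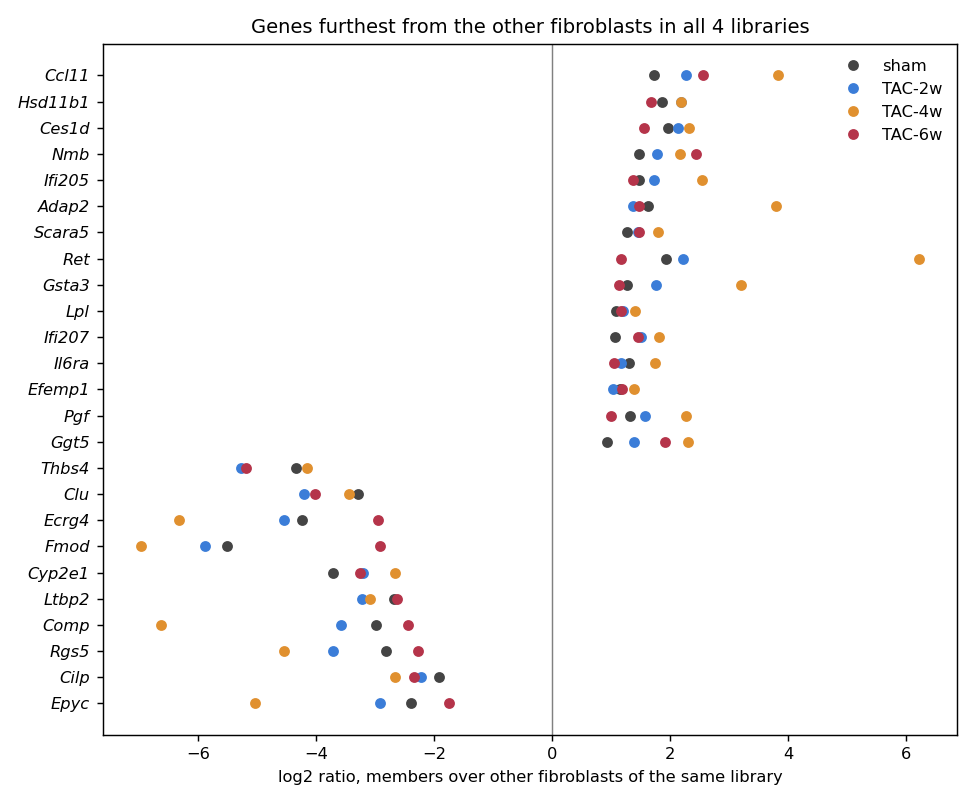
Log2 ratio of summed levels, members over all other fibroblasts of the same library, for the 15 genes furthest above and the 10 furthest below 0 in their least distant library, 1 point per library. TAC-4w, with 66 members, gives the widest points, such as 6.22 for Ret and -6.97 for Fmod.

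Gene lists gave the same outline. Of 16 activated and matrifibrocyte genes tested, 9 were at least 1.5-fold lower in members in all 4 libraries and none higher (Ccn2, Mfap4, Cilp, Timp1, Tagln, Comp, Ltbp2, Runx1 and Thbs4), with a median log2 difference of -1.49 beside 0.03 for all 5822 genes. Ccn2, a matricellular growth factor, stood at 335, 364, 617 and 584 CPM in members and at 733, 972, 2622 and 1595 CPM in other fibroblasts. Postn itself was used by the rule, which set aside cells with at least 2 UMIs, and against the Gdf10 side alone only Comp and Timp1 of these 9 genes were at least 1.5-fold lower in all 4 libraries. At TAC-6w the log2 ratio of members to the Gdf10 side was -0.02 for Ccn2 and -0.08 for Mfap4. Of 12 proteoglycan genes 2 were lower (Fmod and Prg4), and of 8 Wnt genes 2 (Dkk3 and Frzb). Against the Gdf10 side alone the log2 ratio of Prg4 was -0.21, 0.22, -2.85 and 0.84, and that of Frzb was -0.31 at TAC-2w and -0.13 at TAC-6w. No fibrillar collagen or crosslinking gene of 16 passed in either direction, nor did any of 16 fibroblast genes outside the rule, among them Gsn (19485 to 25868 CPM), Lum (882 to 1257 CPM), Dpt and Tcf21, which were present in all libraries.

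Lists with medians above 0 held few genes past the limit. Of 16 basement membrane genes only Lamb1 passed, at 438, 470, 372 and 455 CPM against 157, 171, 34.8 and 199 CPM on the Gdf10 side, while the list's median was 0.52 in log2. Of 12 adventitial and progenitor-like genes Ly6c1 passed, and the list's median was 0.78. Pi16 stood at 1846, 1395, 2611 and 1678 CPM in members and at 615, 554, 618 and 289 CPM on the Gdf10 side, but at 1794, 1328, 577 and 1960 CPM in Postn-positive cells. Efhd1 and Cd248 likewise stood lowest on the Gdf10 side in all 4 libraries, and in Postn-positive cells they were near or above members except at TAC-4w. In the TGF-beta and BMP pathway (20 genes) the ligand Bmp2 was higher (19.8 to 37.7 CPM in members) and the ligand Tgfb3 lower (43.1 to 54.7 CPM). Of the other lists, 1 of 14 chemokine and cytokine genes (Ccl11) and 1 of 15 elastic fibre genes (Efemp1) were higher. The elastic fibre genes Mfap4 and Ltbp2, Clu among 10 complement genes, Sema3d among 19 growth and guidance factors, Nr4a2 among 20 immediate early genes and Timp1 among 10 acute-phase genes were lower. None of 5 retinoid, 12 heat shock or 11 circadian clock genes passed.

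Markers of other cell types in the members were given as measured. Red blood cell genes summed to 3915, 2606, 8310 and 1513 CPM in members, led by Hbb-bs with 735 to 3764 CPM. The macrophage list summed to 2484 to 4373 CPM, of which Apoe alone was 2440 to 4100 CPM, and at TAC-4w C1qc, Cd68, Adgre1 and Csf1r were at 0. The B cell list (326 to 467 CPM) was led by Ebf1, which fibroblasts also express, and the endothelial list (155 to 390 CPM) by Ly6c1. Cardiomyocyte genes summed to 221, 355, 52.0 and 33.2 CPM, smooth muscle genes to 51.9 to 57.5 CPM, T and NK genes to 3.27 to 18.8, neutrophil genes to 11.03 to 227 (S100a9 at 106 CPM in TAC-4w), platelet genes to 21.5 to 138, dividing cell genes to 5.53 to 37.5 and epicardial genes to 1.35 to 8.85 CPM. The Schwann cell list (27.5 to 69.7 CPM) was almost entirely Stmn4, and Sox10 and Gfra3 were at 0 in all 4 libraries. Several sums differed between members and other fibroblasts. The smooth muscle list stood at 57.5 CPM in members against 318.5 in other fibroblasts at TAC-4w, and red blood cell genes at 8310 against 1982. The macrophage list stood at 3466 against 6680 CPM in sham, and at 4373 against 4271 at TAC-6w. Neutrophil genes stood at 11.03 against 221.5 CPM in sham, and at 227 against 223.5 at TAC-4w. The part of these markers in the gene differences was not tested.

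The 3 time points were then set against sham within the members, over 2880 genes with a mean of at least 50 CPM. These included the 4 genes of the Cxcl14 set and 5 other genes of the rule. The 3 comparisons share the sham library, and a ratio is given with its counting interval. At TAC-2w 1 gene (0.0347%) was at least 2-fold higher and 2 genes (0.0694%) at most 0.5 times as high, and the median ratio was 0.994. After thinning to 2000 UMIs, 0 genes were high and 3 were low (Ctla2a, Cxcl2 and Hbb-bt). Of the genes past the limit before thinning, 0 were past it in that setting. Few genes with a mean of at least 50 CPM thus passed between these libraries. The labels put TAC-2w and sham in different batches, and batch, heart and time cannot be told apart. Ccn5, a secreted matricellular protein, stood at 97.2 CPM against 43.2 CPM in sham, a ratio of 2.25 (2.07 to 2.44), and its ratio in other fibroblasts was 1.48. Igfbp5 stood at 55.1 against 148 CPM, a ratio of 0.371, while it was 0.935 in other fibroblasts. Ccl2, the monocyte chemokine, stood at 66.9 against 142 CPM (0.471), and was at 0.422 in other fibroblasts.

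Short of 2-fold at TAC-2w were Trf (transferrin) at 1.64, Txnip (a thioredoxin inhibitor) at 1.58, Gm26802 at 1.69 and Cytl1 (a cytokine-like secreted protein, at 24 against 13.3 CPM) at 1.80. On the low side were the matrix gene Spon2 at 0.555, the metallothionein Mt2 at 0.595 and Hbb-bt at 0.574. No gene of the activated, collagen, basement membrane, complement, TGF-beta, immediate early or heat shock lists passed 2-fold in members at TAC-2w. Comp and Ltbp2, with means under 50 CPM and so outside the comparison, were at 0.891 and 1.04 in members, beside 1.35 and 1.505 in other fibroblasts.

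At TAC-4w, where all values rest on 66 cells, 9 genes (0.312%) were at least 2-fold higher and 59 (2.05%) at most 0.5 times as high, beside a median ratio of 1.10. The balance depended on the setting, with 219 high and 193 low after thinning to 2000 UMIs, and 742 high and 56 low when divided by the ratio outside the gate. Of the 9 high genes 5 were among those high in each setting, and of the 59 low genes 43 were low after thinning and 20 after the division. The low genes included 11 of 17 immediate early genes, 5 of 12 heat shock genes, 4 of 8 acute-phase genes and 4 of 10 chemokine and cytokine genes. Fos stood at 1842 CPM against 4613 in sham, Jun at 2266 against 5288 and Atf3 at 155 against 841 CPM, a ratio of 0.184 (0.155 to 0.218). Hspa1a, an inducible heat shock protein, stood at 54.2 against 481 CPM (0.113), and the growth arrest gene Gadd45g at 68.6 against 426 CPM (0.161). Il6 stood at 4.43 against 76.9 CPM and rested on 4 UMIs (ratio 0.0576, 0.0157 to 0.148). The other cells of the library differed by gene, with Atf3 at 0.202 in other fibroblasts, 0.434 in macrophages and 0.496 in B cells, but Fos at 1.11 and Jun at 0.812 in other fibroblasts, beside 0.399 and 0.428 in members. Fos was at 0.815 in macrophages, 0.378 in B cells and 0.437 in all cells outside the gate, and Jun at 0.615, 0.556 and 0.342. Of the 59 low genes 21 were at most 0.5 times sham in other fibroblasts, 30 in macrophages and 30 in B cells.

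Ccl2 differed between members and other fibroblasts at TAC-4w. A single Ccl2 UMI was counted in the 66 members (1.11 CPM, ratio 0.00779 with an interval of 0.000197 to 0.0434), while other fibroblasts of the library stood at 2.91 times the sham level and their Postn-positive cells at 839 CPM. Of the high genes, Cytl1 (183 against 13.3 CPM) drew 84.8% of its UMIs from 1 cell and Igfbp5 (743 against 148 CPM) 26.8%. Without the top cell of each library the ratios were 2.62 for Cytl1 and 4.13 for Igfbp5. Hbb-bt (1189 against 355 CPM) and Hba-a1 (1872 against 777 CPM) drew 98.5% and 96.3% of their UMIs from 1 cell, and their ratios were 0.0544 and 0.0967 without the top cells. The glutathione transferase Gstp1 stood at 77.5 against 19.5 CPM (3.98, and 3.56 without the top cells). Among the 5 leading high genes, Igfbp5, Gstp1 and Cytl1 therefore stayed at least 2-fold higher without the top cells, and only Igfbp5 and Gstp1 at least 3-fold. Gstp1 stood at 29.2 CPM at TAC-2w and 76.0 CPM at TAC-6w, so it passed the mean of 50 CPM only through TAC-4w and TAC-6w. Gstp1 was also at 2.69 in other fibroblasts and 3.18 in macrophages.

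At TAC-6w, in the batch of the sham library by label, 45 genes (1.56%) were at least 2-fold higher and 31 (1.08%) at most 0.5 times as high. Many of these genes were also past the limit in other cells of the library. Of the 45 high genes 33 were at least 2-fold higher in other fibroblasts, 17 in macrophages and 25 in B cells, and 9 encoded ribosomal proteins. Rps28, a protein of the small ribosomal subunit, stood at 4215 against 1529 CPM in members (2.76), at 2.44 in other fibroblasts, 2.89 in macrophages and 2.83 in B cells. Rpl35 and Gm11808, at 2.59 and 4.10, were within 2.49 to 3.83 in those cells, and Bloc1s1, Jup, Hes1 and Spon2 were also at least 1.5-fold higher in each of them. The 83 ribosomal protein genes had a median ratio of 1.25 in members, 1.16 in other fibroblasts and 1.36 outside the gate, and the 12 mitochondrial transcripts 0.593, 0.589 and 0.627. Of the 31 low genes 5 were mitochondrial, mt-Nd2 among them at 0.372.

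Of the 45 genes, 7 were under 1.5-fold in macrophages and in B cells, among them Heyl, Dhrs3, Tmem176b, Vamp5, Tgfb1 and Mbd1. The B cell ratios rest on 179 cells in sham and 333 at TAC-6w, at median depths of 3336 and 2055 UMIs. They have no interval here, so a ratio under 1.5 does not show that a gene was unchanged there. Dhrs3, a retinal reductase of retinoid metabolism, stood at 34.6, 30.6, 86.3 and 111 CPM in members, in the same order, a ratio at TAC-6w of 3.22 (2.90 to 3.57), with 1.84 in other fibroblasts, 1.5 in macrophages, at the limit, and 0.831 in B cells. Dhrs3 was thus higher than in sham in the members of both TAC-4w and TAC-6w. Tgfb1, the cytokine that drives matrix production, stood at 57.1, 49.4, 77.5 and 115 CPM, a ratio of 2.01 beside 2.74 in other fibroblasts.

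Of the matrix lists, 1 of 9 activated genes (Cilp), 1 of 14 elastic fibre genes (Ltbp4) and none of 9 proteoglycan genes passed 2-fold at TAC-6w. Over all 2880 genes 1.56% were at least 2-fold higher. The matrix gene Spon2, outside these lists, was also past 2-fold, at 2.74. Cilp stood at 159 against 64.7 CPM in members (2.46, and 3.30 in other fibroblasts), Ltbp4, a binding protein of latent TGF-beta, at 2053 against 956 CPM (2.15, and 2.35), and Ccn5 at 101 against 43.2 CPM (2.33). Outside the gate the ratios were 2.56, 2.03 and 2.10, and none of these genes was at least 2-fold higher in members after division by them. Comp and Ltbp2, whose mean over the 4 libraries was under 50 CPM and so outside the comparison, were at 3.01 and 3.29 times sham in members, 2.06 and 3.155 in other fibroblasts and 1.57 and 2.99 outside the gate. Of 14 fibrillar collagen and crosslinking genes and 13 basement membrane genes none passed 2-fold in members, and the median log2 ratio of 9 activated genes was 0.76 beside -0.08 for all genes tested. The TAC-6w library was the shallower one, with a median of 5917 UMIs per member against 10524. With every cell thinned to 2000 UMIs, 50 genes were high, 38 of them among the 45, and 68 were low, 25 of them among the 31.

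The low genes of TAC-6w included 4 of the 11 adventitial genes tested, Sema3c (56.6 against 132 CPM), Efhd1 (42.1 against 92.8), Cd55 (230 against 565) and Has1 (51.4 against 117), the last encoding a hyaluronan synthase. Uap1 and Ugdh, which make the sugar precursors of hyaluronan and other glycans, stood at 311 against 780 CPM (0.398) and at 167 against 418 CPM (0.3995), with ratios of 0.588 and 0.551 in other fibroblasts and of 1.03 and 0.876 in macrophages. Has1 was at 0.438 in members and 0.432 in other fibroblasts, so that all 3 genes were below sham in both. Igfbp5 was at 0.323, the complement gene C7 at 0.285, Ppl (periplakin) at 0.318, Ptx3 (a pentraxin) at 0.370 and the fatty acid binding gene Fabp4 at 0.338, and all 5 were at 0.209 to 0.360 in other fibroblasts. Hbb-bt and Hbb-bs were at 0.154 and 0.341, beside 0.0771 and 0.0738 outside the gate. Divided by the ratio outside the gate, 10 genes were at least 2-fold high and 4 at most 0.5, among them 3 of the 45 (Dhrs3, Tmem176b and Cytl1) and 2 of the 31 (Fabp4 and Ptx3). The 10 also included Pdgfra, which the rule requires in every member, so the gate partly sets its value. Cytl1 reached the mean of 50 CPM over the 4 libraries through the 183 CPM of TAC-4w, where 84.8% of its UMIs came from 1 cell, and stood at 33.5 CPM at TAC-6w against 13.3 in sham. Cells outside the gate also held fibroblast RNA, since 71.3% of the sham library's Dcn UMIs, and not all, lay inside the gate.

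**Figure D5:**
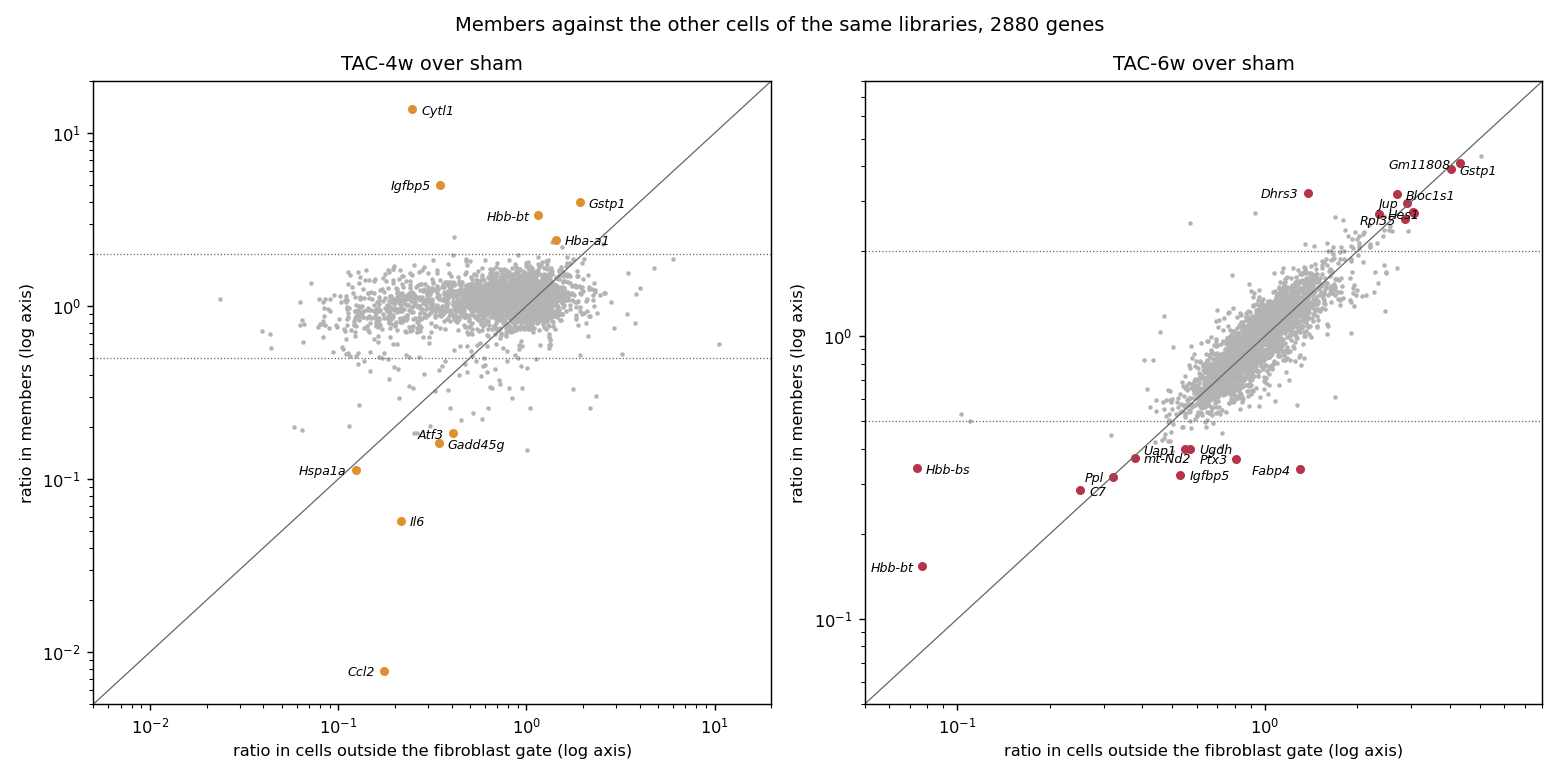
Ratio of summed levels to sham in members (vertical, log axis) against the ratio in cells outside the fibroblast gate (horizontal, log axis), 1 point per gene, with the line of equal ratios and dotted lines at 2-fold. At TAC-6w Gm11808 lies near the line, at 4.10 in members and 4.32 outside the gate. At TAC-4w the cells outside the gate had 1183 CPM of Dcn against 5751 in sham, and many points lie above the line.

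The genes of the set were then read in the sections, which the rule did not use. A section measures tissue, so fewer cells of a type and less RNA per cell cannot be told apart, and the genes are not limited to fibroblasts. The Cxcl14 set summed to 96.4 CPM in sham, 71.5 after 2 weeks of TAC, 71.6 after 4 and 109 after 6, and the Gdf10 set to 23.0, 19.1, 23.3 and 17.3 CPM. Pcsk6 gave the most UMIs of the former in each section (51.7, 42.9, 31.2 and 64.1 CPM), whereas Cxcl14 was lowest at TAC-6w (22.2, 13.1, 19.1 and 9.32 CPM). The section with the highest set level was therefore the one with the lowest Cxcl14. Loxl2 stood at 7.27, 4.98, 5.89 and 16.5 CPM, beside Postn at 23.8, 15.1, 35.2 and 106 CPM. Stmn4, with 11 to 14 UMIs per section, could not be located.

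Spots at the tissue border, with fewer than 6 neighbours over tissue, were compared with inner spots. The mesothelial genes Msln and Upk3b were 11.9 to 21.5 times as high in the 126 to 170 border spots, as a check that these spots hold the surface of the tissue. The Cxcl14 set was lower there in all 4 sections, at 69.4 against 101 CPM in sham (ratio 0.690), 63.9 against 72.2 at TAC-2w (0.884), 62.3 against 72.7 at TAC-4w (0.857) and 80.8 against 112 at TAC-6w (0.718). The mean log2 ratio was -0.35 ± 0.18 (SD, n = 4), with p = 0.125 in a two-sided exact permutation test, the smallest p that 4 sections allow. Fibroblast genes outside the set varied by section. In the same order, Lum had border ratios of 0.726, 0.953, 0.903 and 1.10, and Dpt of 0.751, 1.11, 0.926 and 1.19. Postn had 0.691, 1.35, 0.268 and 0.724. In sham the lower border level was thus shared by these genes. The Gdf10 set had ratios of 0.715, 0.844, 1.43 and 1.59. Set against it, the Cxcl14 set was lower at the border in 3 of 4 sections, with log2 values of -0.05, 0.07, -0.74 and -1.15, a mean of -0.47 ± 0.58 (SD, n = 4) and p = 0.375 in the same exact permutation test.

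Rings of spots counted from the border showed where the difference lay. In sham the Cxcl14 set went from 69.4 CPM in the first ring and 74.0 in the second to 101 in rings 3 to 4 and 106 from ring 9 inwards, and at TAC-6w from 80.8 and 92.5 to 104 and 126 CPM. At TAC-2w and TAC-4w the inner rings were flat, between 67.9 and 76.9 CPM. Spot depth changed across the same rings. In sham the medians were 22203 UMIs in the first ring, 23591 in the second, 20500 in rings 3 to 4, 17785 in rings 5 to 8 and 8365 from ring 9 inwards, and at TAC-6w 27653.5, 35946, 27584, 19430 and 15471. Depth was thus higher in the second ring than in the first and then lower at each step inwards in both sections, while the set was higher inside the border. At TAC-2w the first and innermost medians were 26291.5 and 23170, and at TAC-4w 26288 and 25064. The part of depth in the gradient was not tested. Pcsk6 and Pla1a were lower at the border in 4 of 4 sections, with ratios of 0.596 to 0.857 and of 0.596 to 0.887, and the TAC-2w interval of each included 1. Loxl2 had ratios of 1.10, 1.04, 0.776 and 0.719, below 1 in 2 of 4 sections. Cxcl14 was not lower throughout, with ratios of 0.857, 0.915, 1.15 and 1.01 whose intervals all included 1.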

How the data were processed

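The authors aligned reads to mm10 and deposited UMI counts per gene and barcode (4 libraries) or spot (4 sections), without normalization, and the position of each spot (other: tissue flag and array row and column). The submitters' processing notes name Cell Ranger 7.0.0 and Space Ranger 1.3.1, and the file headers version 6.0.0 of the former and 1.2.0 of the latter. Totals were 28793316 to 86671674 UMIs per library and 25996378 to 48754396 per section.

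Counts were summed over cells of a class in Python (version 3.11.15, scipy 1.17.1, numpy 2.4.6, pandas 2.3.3, matplotlib 3.10.9). A barcode was kept at 500 to 30000 UMIs, 200 to 6000 genes and less than 15% mitochondrial UMIs. B cells were taken as cells with no Pdgfra UMI, at least 1 of Ptprc and 2 of Cd79a, and macrophages with at least 5 of C1qa, C1qb and C1qc in place of Cd79a. Doublets were not removed in the values reported. As an alternative, the 3.2% of each library's cells with the highest Scrublet scores (scanpy 1.11.5, expected rate 7%) were removed, which took 17, 12, 0 and 24 members. Log2 ratios between classes have 0.5 added to each count. Intervals (95%) are exact Poisson for levels, conditional binomial for ratios and Clopper-Pearson for shares. Genes named are the 15 highest and 10 lowest against other fibroblasts by their least distant library, for time points the 10 (TAC-6w) or 5 highest and lowest by the interval bound nearest 1, and list members past the fold, apart from a few that are not reported here. Members and lists were chosen with earlier results of these data known, and the split by Cxcl14 was added after its values were seen. Gene positions come from the RefSeq annotation of GRCm38.p6, the assembly of mm10. The scripts were tested on simulated counts.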

Additional observations from a re-analysis of the deposited data

Results flagged for a closer look

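The genes Hbb-bt, Hba-a1 and Ccl2 had members and other fibroblasts on opposite sides of sham at TAC-4w, a difference that was not tested with 1 library per condition. Hbb-bt, a hemoglobin gene, was at 3.35 times sham in members and 0.632 in other fibroblasts, and Hba-a1, also a hemoglobin gene, at 2.41 and 0.842. A single member held 98.5% and 96.3% of these UMIs. Ccl2 was at 0.00779 in members, on 1 UMI, and at 2.91 in other fibroblasts.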

How the results depend on the processing

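Of 122 alternatives to 12 results, 86 were classed as the same. This meant a share ratio within the counting interval of the reported ratio, a gene count within 1.5 times the reported count, or a border difference of the same sign. A count classed as the same need not hold the same genes. Thinning gave 3 low genes at TAC-2w against 2 as reported, with 0 shared. The share of members at TAC-6w divided by sham (0.943) was 1.09 after thinning, 1.004 in cells with 3000 to 10000 UMIs and 0.847 over all cells. Leaving out ties together with the Postn and Wif1 cells, it was 1.10. At TAC-2w (0.922) it was 0.854 in that depth window and 0.873 over all cells, and at TAC-4w (0.404) 0.652 and 0.0426. Without ties and the Postn and Wif1 cells it was 0.535 at TAC-4w. Genes higher and lower than in other fibroblasts (35 and 64) were 149 and 120 against the Gdf10 side alone, 183 and 418 without a filter on low values, 30 lower at a mean of 50 CPM, and 39 to 87 higher and 70 to 121 lower leaving out a library, the last of each without TAC-6w. For the time points, no filter gave 1740 and 2111 genes at TAC-2w, 1658 and 5357 at TAC-4w and 1883 and 3243 at TAC-6w, and a mean of 100 CPM gave 0 and 1, 5 and 38, and 25 high. Thinning gave 0 high at TAC-2w, 219 and 193 at TAC-4w and 68 low at TAC-6w. A margin of 2 UMIs gave 2 high at TAC-2w, and the mean of each cell's CPM 15 high at TAC-4w. Divided by the ratio outside the gate, chosen after seeing the data, 742 were high at TAC-4w and 10 high and 4 low at TAC-6w. The causes were not tested. The border difference of the Cxcl14 set relative to the Gdf10 set (-0.47) kept its sign in all alternatives (-0.56 to -0.18, and -0.65 to -0.24 leaving out a section, added after seeing the data). No paired analysis was possible because conditions had 1 library and 1 section each, which leaves no numbered replicates to pair between them, while border and inner spots were paired within sections in the test reported. The 66 members of TAC-4w and the depth of TAC-6w limit what could be detected there.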
